A study of Rattus norvegicus with 40 samples.

Results

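The liver tissue described here is the non-tumoral (NT) liver of nodule-bearing rats that had received N-nitrosodiethylamine (DEN) for 14 weeks, at the end of the injections. Its members are the 4 libraries labelled DEN, collection week 14 and NT, which were compared with the 4 libraries of untreated (no DEN) rats of the same week, 8 libraries of the 40 in the whole series (24 rats). All rats were adult Fischer 344 males, aged 7 weeks at the first injection. The DEN rats, numbered F06, H21, H22 and H23, had been injected into the peritoneum once a week with 50 mg/kg DEN, and the no DEN rats, numbered H09, H10, H11 and H12, had received none. The labels say only that the controls got no DEN and mention no vehicle injection, and "untreated" is used here in that sense. Per the paper's methods the DEN was diluted in olive oil. Effects of oil and injection therefore cannot be told apart from those of DEN. Each library came from the bulk messenger RNA of a liver piece, so fewer cells of a type and less RNA per cell cannot be told apart. The labels call the DEN pieces NT but do not say how they were separated from nodules or whether they held microscopic lesions. The paper reports, from stained liver sections, preneoplastic lesions positive for the placental form of glutathione transferase. It describes them as expanding while the injections went on. Whether the sequenced NT pieces held such lesions was not tested.

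DEN is an alkylating liver carcinogen that hepatocytes activate through P450 enzymes, and in rat liver it gives rise to foci of altered hepatocytes before tumors appear. Such foci are recognised by the placental form of glutathione transferase (Gstp1) and by gamma-glutamyltransferase (Ggt1). Repeated dosing also kills hepatocytes, which drives the survivors to divide and the stellate cells to lay down collagen. The comparison asks what this tissue, which is neither untreated liver nor nodule, expressed while DEN was still being given.

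Between 25403461 and 35326660 read pairs were counted per library. The DEN libraries had reads on 12818 to 12938 genes and the no DEN libraries on 12212 to 12364 (exact two-sided permutation p = 0.0286, the smallest that 4 rats against 4 can give, and 0.0571 after Benjamini-Hochberg adjustment over 8 library measures). Albumin took 14.5% to 16.9% of the pairs in DEN rats and 16.7% to 18.7% in no DEN rats. The share of pairs in no gene was 24.4% to 24.9% in DEN rats and at most 23.9% in no DEN rats, and the share of ambiguous pairs 0.819% to 0.922% and 1.11% to 1.36%, both without overlap (exact permutation p = 0.0286, adjusted 0.0571). Their part in the results was not tested. Levels are given as CPM, a gene's counts relative to its library's total after scaling by trimmed means of M values (TMM), whose factors were 1.07 to 1.22 in DEN rats and 0.851 to 0.875 in no DEN rats. Scaling by library totals alone moved the median log2 fold change of all genes tested from 0.02 to 0.44, so small changes depend on the scaling. Defining hepatocyte genes were abundant in all 8 pieces: albumin (Alb) was at 119476 to 218122 CPM, transferrin (Tf) at 38293 to 44222 CPM and transthyretin (Ttr) at 4976 to 14546 CPM. Rat F06, the only one of the 8 whose number carries the letter F, stood apart within its group: it was the lowest DEN rat for 755 of the 1445 genes that rose (52.2%), and without it 1786 genes were called instead of 1676.

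The quasi-likelihood test of edgeR was used, and a gene was called where its level differed at least 2-fold (a log2 fold change of 1 or more, up or down) with a Benjamini-Hochberg adjusted p of at most 0.01. Of 17337 genes counted, 11016 had enough counts to be tested and 1676 were called. Of the genes tested, 13.1% rose (1445 genes) and 2.10% fell (231 genes). Counts of list members called below are to be read beside these shares. Among the genes called, 86.2% were higher under TMM scaling and 96.5% under library totals (2425 higher, 87 lower). The 4 DEN rats lay wholly above or below the 4 no DEN rats in 1656 of the 1676 genes called and in 49.9% of all genes tested. Throughout, log2 fold changes are DEN over no DEN with their standard error (SE), and adjusted p values are those of edgeR unless a test is named.

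Promoters of mitosis genes are shown first, because every tested gene of that list was called higher. In mammals, promoters of such genes often hold a cell-cycle homology region, TTTGAA or TTTAAA, close to an inverted CCAAT box. The sequences, from RefSeq on the build GRCr8, run 5′ to 3′ from 130 bases before the annotated start to 20 bases after it. Capitals mark TTTGAA or TTTAAA and CCAAT on either strand.
Cdk1 (chr20:19265163-19265312, plus strand): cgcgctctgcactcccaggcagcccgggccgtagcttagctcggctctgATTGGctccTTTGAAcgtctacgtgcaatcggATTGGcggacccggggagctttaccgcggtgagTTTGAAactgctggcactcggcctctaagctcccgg
Ccnb1 (chr2:33655206-33655355, minus strand): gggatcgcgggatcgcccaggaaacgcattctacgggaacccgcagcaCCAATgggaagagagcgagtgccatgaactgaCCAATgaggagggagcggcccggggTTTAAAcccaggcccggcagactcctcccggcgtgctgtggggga
Plk1 (chr1:186147528-186147677, plus strand): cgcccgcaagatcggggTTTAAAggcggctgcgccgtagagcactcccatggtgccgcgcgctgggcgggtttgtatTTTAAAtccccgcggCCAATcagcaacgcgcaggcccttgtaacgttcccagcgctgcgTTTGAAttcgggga
Kif11 (chr1:244536737-244536886, plus strand): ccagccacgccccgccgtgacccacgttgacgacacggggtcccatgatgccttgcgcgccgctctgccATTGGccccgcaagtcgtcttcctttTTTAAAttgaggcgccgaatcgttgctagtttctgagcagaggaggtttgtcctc
Nusap1 (chr3:127057165-127057314, plus strand): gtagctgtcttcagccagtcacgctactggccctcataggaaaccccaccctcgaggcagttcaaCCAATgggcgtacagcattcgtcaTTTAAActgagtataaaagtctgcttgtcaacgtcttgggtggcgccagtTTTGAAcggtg
These 5 were chosen because each holds both motifs in this stretch and codes for a central part of the machinery: the kinase Cdk1 and its cyclin Ccnb1, the polo kinase Plk1, the spindle motor Kif11 and the spindle protein Nusap1. Over 300 bases from 250 before to 50 after the start, TTTGAA or TTTAAA on either strand was present in 28 of the 29 genes of the mitosis list with a promoter sequence, in 18.8% of promoters of the genes tested and in 27.9% of all 27457 promoters. CCAAT was present in 22 of those 29 genes, in 38.1% of promoters of genes tested and in 37.7% of all. Among 25 genes of DNA replication, TTTGAA or TTTAAA was present in 2 and CCAAT in 17. These are matches of letters, not measured binding.

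The promoter of Gstp1 is shown because the gene marks the foci and was among the most raised at a high level. Capitals mark TGACNNNGC, the core of the antioxidant response element through which the factor NRF2 acts, read on either strand.
Gstp1 (chr1:210769686-210769835, minus strand): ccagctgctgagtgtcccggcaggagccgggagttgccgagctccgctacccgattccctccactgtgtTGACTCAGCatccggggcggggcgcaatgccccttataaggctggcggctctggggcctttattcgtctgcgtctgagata
The match began 61 bases before the start, and its letters alone do not show which factor acts there. The same letters were present in 12.2% of all promoters of 300 bases, in 14.8% of those of genes tested and in 4 of 16 promoters of the NRF2 list (Gclm, Me1, Ugdh and Gsta2). Other lists had similar shares: 6 of 29 for mitosis, 4 of 25 for DNA replication, 2 of 10 for foci enzymes and 4 of 19 for p53 targets.

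The enzymes and carriers that mark altered foci had the highest median of the 45 gene lists. Of 12 members tested, 11 rose and none fell, and their median log2 fold change was 5.30 against 0.02 over all genes tested. Gstp1 stood at 7.30, 8.46, 10.2 and 9.03 CPM in the no DEN rats H09 to H12, and at 485, 1837, 1914 and 1198 CPM in F06, H21, H22 and H23. F06 was lowest of the DEN rats but still far above every untreated rat, and the log2 fold change was 7.28 (SE 0.50, edgeR adjusted p = 2.13e-05). Ggt1, which breaks down glutathione outside the cell, rose from 0.236 to 0.552 CPM to 4.65 CPM in F06 and 13.7 to 23.5 CPM in the other DEN rats. The aldo-keto reductase Akr1b8 was at 1.10 to 1.62 CPM without DEN and at 44.0, 293, 314 and 153 CPM with it. Akr7a3, an aldehyde reductase that handles aflatoxin, went from 47.6 to 67.0 CPM to 306, 1241, 1324 and 811 CPM. In each of these genes the order of the rats was the same, with F06 lowest, H23 next, and H21 and H22 highest.

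Aldehyde dehydrogenase Aldh3a1 is nearly silent in normal liver and had 3 counts in the 4 no DEN libraries together. In DEN rats it had 9384 counts, or 8.89, 78.8, 135 and 48.8 CPM, a ratio of 2523 (95% counting interval 863 to 12235, which covers counting error only). Of the export pumps, Abcc3 followed the same order as the enzymes, with 35.4, 114, 96.9 and 86.4 CPM against 1.44 to 2.66 without DEN. Abcb1b, a multidrug pump, was at 177, 216, 195 and 183 CPM against 3.30 to 5.49 CPM, with F06 close to the others (log2 fold change 5.45, SE 0.17, edgeR adjusted p = 1.02e-07).

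**Figure D1:**
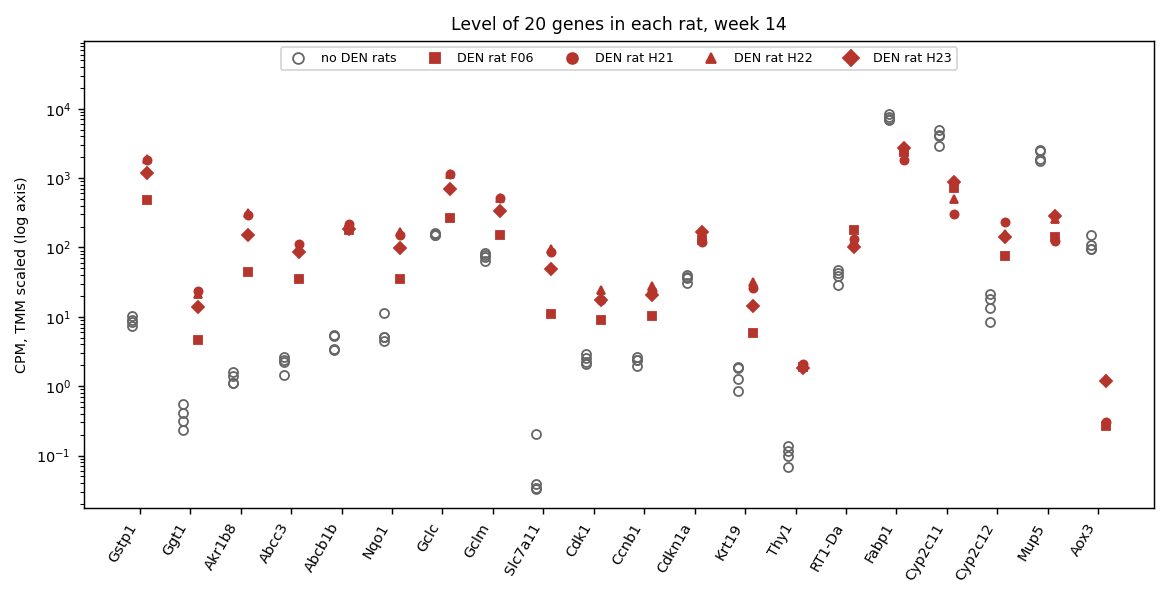
Level of 20 genes in each rat at week 14, as CPM after TMM scaling on a log axis. Open circles are the 4 no DEN rats and filled symbols the 4 DEN rats, 1 symbol shape per rat. F06 (squares) is the lowest DEN rat for Gstp1 (485 CPM), Ggt1, Akr1b8 and Nqo1, while Abcb1b, Cdkn1a and Thy1 lie close together in all DEN rats.

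Genes under the control of NRF2, the factor that answers oxidants and electrophiles, rose in part. Of 20 tested, 11 rose and none fell, with a median log2 fold change of 1.37. The cystine carrier Slc7a11, which feeds glutathione synthesis, was at 0.0325 to 0.208 CPM in no DEN rats and at 11.1, 87.1, 96.5 and 49.2 CPM in DEN rats. Nqo1, a quinone reductase, rose from 4.51 to 11.2 CPM to 34.7, 149, 165 and 96.9 CPM (log2 fold change 4.10, SE 0.58, edgeR adjusted p = 8.81e-04). Both subunits of the enzyme that starts glutathione synthesis rose together: Gclc from 150 to 162 CPM to 263, 1134, 1155 and 686 CPM, and Gclm from 64.7 to 81.9 CPM to 149, 520, 519 and 333 CPM. Sulfiredoxin (Srxn1) had a log2 fold change of 3.34 (SE 0.38) and thioredoxin reductase (Txnrd1) of 1.79 (SE 0.29). Haem oxygenase (Hmox1) overlapped between the groups, at 33.7 to 64.0 CPM with DEN and 24.5 to 37.6 CPM without, and malic enzyme (Me1), which supplies NADPH for fat synthesis as well, had a log2 fold change of -0.90 (SE 0.14), short of the 2-fold limit.

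Other genes went from near silence to clear expression. By the rule of the largest change among called genes that averaged 1 CPM or more and did not overlap between groups, the 10 largest rises included Defb1, Aldh3a1, Nefl, Dnaaf1, Slc7a11, Slc5a9, RT1-M5, Pcp4 and Bex1. The antimicrobial peptide Defb1 had 0 counts in the 4 no DEN libraries and 1802 in the DEN libraries, at least 484-fold higher with a floor of 3 counts over the group. Neurofilament light chain (Nefl), an axonal protein, had 1 and 2777 counts (ratio 2240, 95% counting interval 402 to 88492). The calmodulin-binding peptide Pcp4 had 2 and 1354 counts (ratio 546, interval 151 to 4513), and the cilium assembly factor Dnaaf1 2 and 2409 counts (ratio 971, interval 269 to 8026). Bex1 was at 5.24, 21.9, 24.5 and 14.6 CPM with DEN and at most 0.0787 CPM without. The glucose carrier Slc5a9 and the class I-like gene RT1-M5 were at 0 counts without DEN and at least 90.1-fold and 84.4-fold higher with it. Calls of the rarest genes depended on single rats: that of Defb1 ended without H09, H11, H12, H21, H22 or H23 (edgeR adjusted p = 0.0126 to 0.0327) and with no filter on low counts (0.0241), those of Nefl and Dnaaf1 without H11 (0.0296 and 0.0302) and that of Pcp4 without H12 (0.0107).

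**Figure D2:**
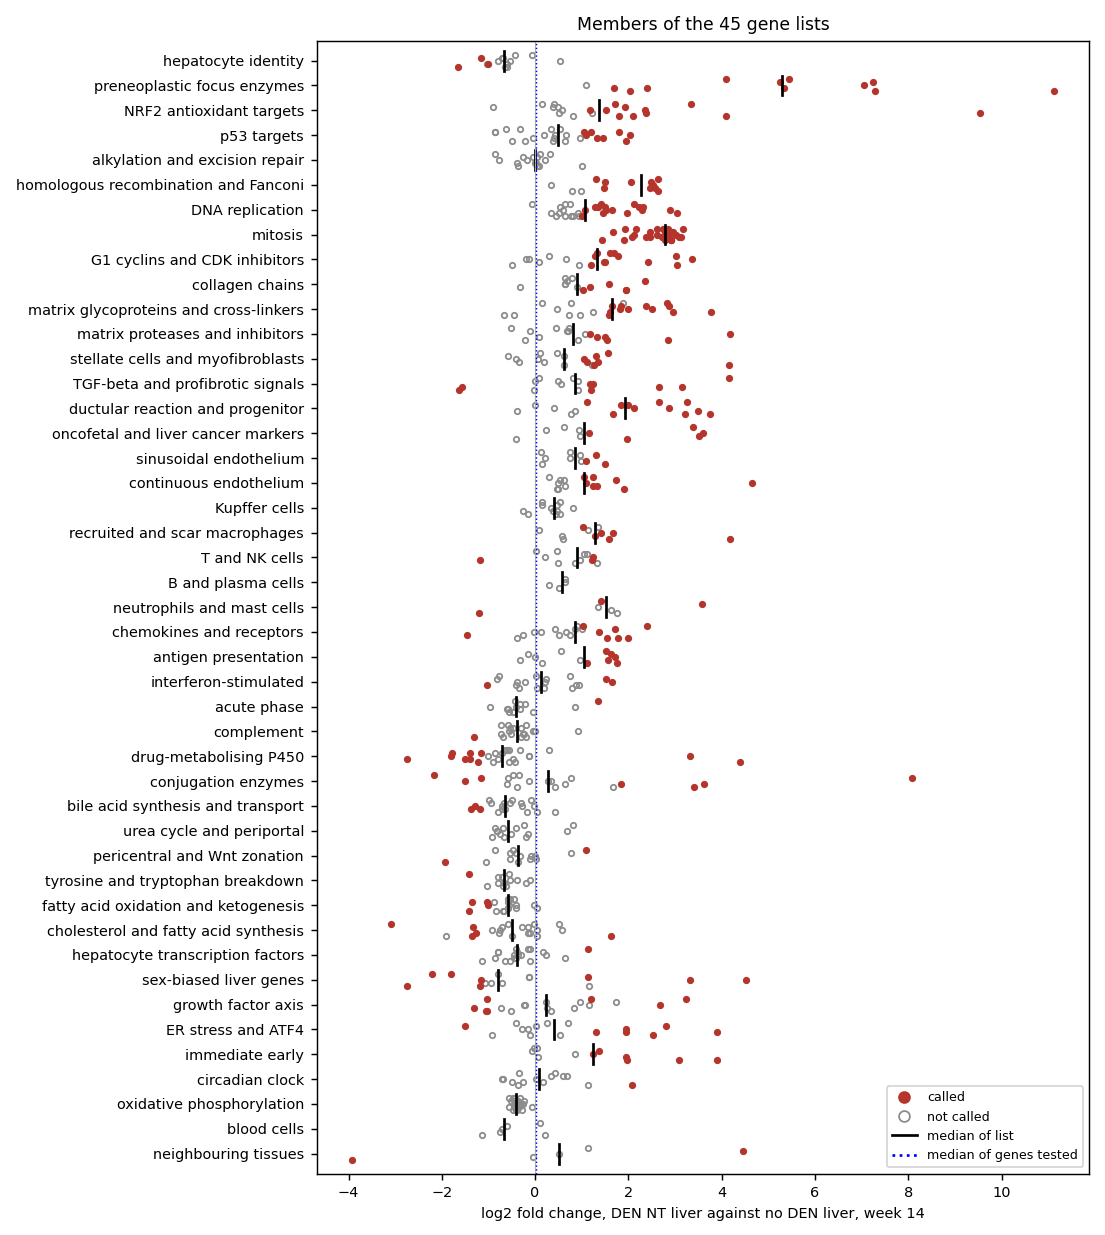
Log2 fold change (DEN NT liver against no DEN liver, week 14) of every tested member of 45 gene lists, 1 point per gene. Filled points were called, open points were not, black bars are list medians and the dotted line is the median of all genes tested (0.02). Every point of the mitosis list is called and to the right, while most hepatocyte lists sit left of the line with few calls. Aldh3a1, the point farthest right, is a fitted value that rests on 3 counts without DEN, and Akr1b10 rests on 2.

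All 30 tested genes of the mitosis list were called higher, between 1.44 (Cdc25c) and 3.17 (Cenpf) on the log2 scale, with a median of 2.78. Cdk1 was at 2.09, 2.20, 2.92 and 2.57 CPM in the no DEN rats and at 8.86, 17.5, 24.1 and 17.6 CPM in F06, H21, H22 and H23 (log2 fold change 2.79, SE 0.30, edgeR adjusted p = 9.45e-05). Ccnb1 was at 1.95 to 2.66 CPM against 10.4, 23.7, 27.6 and 20.6 CPM, and the proliferation marker Mki67 at 3.82 to 6.39 CPM against 23.4, 44.7, 53.7 and 37.1 CPM. H22 was highest and F06 lowest in all 3 of these genes. Plk1, Kif11 and Nusap1, whose promoters are printed above, had log2 fold changes of 2.78 (SE 0.33), 2.46 (SE 0.22) and 2.92 (SE 0.29).

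Of 29 tested genes of DNA replication, 16 were called higher and 13 were not called, with a median of 1.08. The largest were the ribonucleotide reductase subunit Rrm2 (log2 fold change 3.05, SE 0.37), which supplies deoxynucleotides, and the licensing factor Cdc6 (2.90, SE 0.38), at 0.677, 1.71, 1.94 and 1.78 CPM against 0.162 to 0.236 CPM. Of the MCM helicase, Mcm3 had a log2 fold change of 1.98 (SE 0.23) and Mcm2 of 1.01 (SE 0.12), a call that fell short of 2-fold without H10, H12, H21 or H22 (0.94 to 0.99), with DESeq2 or RLE scaling (0.99 each) and in the fit of all 6 groups (0.97). Among regulators of entry into the cycle, 12 of 19 rose. Myc had a log2 fold change of 3.02 (SE 0.34), at 35.3 ± 13.7 CPM (SD, n = 4), lowest in F06, against 3.32 to 5.14 CPM, and Mybl2, a partner in activating mitotic genes, of 3.36 (SE 0.21). Cyclin D1 (Ccnd1) was at 96.4 to 150 CPM against 46.1 to 71.9 CPM, without overlap but short of the 2-fold limit (log2 fold change 0.94, SE 0.20).

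Of 14 genes of homologous recombination and the Fanconi pathway, which act in S and G2 phase, 11 rose, with a median of 2.26. Fancd2, of the Fanconi pathway, was at 2.88, 5.81, 6.51 and 4.15 CPM against 0.472 to 1.17 CPM. Of 16 genes of alkylation and excision repair none was called, with a median of 0.00. Under library totals 1 was called higher and the median was 0.42, against 0.44 over all genes tested. Mgmt, which removes alkyl groups from guanine and is the most direct defence against this kind of damage, doubled almost exactly and so fell just short: 62.5, 57.1, 58.3 and 62.0 CPM against 28.1 to 32.0 CPM (SE 0.07, edgeR adjusted p = 3.62e-06). The glycosylase Mpg was at 4.35 to 5.42 CPM in DEN rats and 4.39 to 5.28 CPM in the others. Xpc, which recognises bulky lesions, was lower in every DEN rat (46.9 to 51.2 against 82.3 to 100 CPM, log2 fold change -0.87, SE 0.07).

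Targets of p53, the factor that answers DNA damage, rose in a subset: 8 of 24 were called higher and none lower, with a median of 0.49. The inhibitor of the cell cycle Cdkn1a was at 129, 118, 143 and 165 CPM against 30.3, 40.4, 36.6 and 37.7 CPM (log2 fold change 1.94, SE 0.12, edgeR adjusted p = 2.44e-06). The death receptor Fas was nearly the same in all DEN rats, at 18.6, 18.1, 18.5 and 18.1 CPM against 4.80 to 5.97 CPM. Mdm2, which degrades p53, rose with a log2 fold change of 1.46 (SE 0.08), Btg2 of 1.33 (SE 0.09), Zmat3 of 1.19 (SE 0.09) and Ccng1 of 1.10 (SE 0.09). For Cdkn1a and Fas, F06 lay within or next to the other DEN rats. Xpc and Dcxr, also named as p53 targets, were lower, at log2 fold changes of -0.87 and -0.86.

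Of 13 collagen chains tested 6 rose, and of 21 other matrix proteins and cross-linking enzymes 12 rose, with medians of 0.89 and 1.64. Fibrillar collagen Col1a1 was at 23.7, 35.1, 46.1 and 13.2 CPM in F06, H21, H22 and H23 against 5.29 to 9.02 CPM, with H23 lowest (the call ended without F06, H09, H11, H12 or H21, at an edgeR adjusted p of 0.0105 to 0.0126), and Col3a1 at 331, 297, 328 and 277 CPM against 120 to 160 CPM. Col1a2 had 0 counts in all 8 libraries and gives no information. The basement membrane chain Lama5 had the largest log2 fold change of these lists (3.78, SE 0.13, edgeR adjusted p = 9.38e-08), at 17.9 to 21.9 CPM against 1.13 to 1.70 CPM. Lysyl oxidase (Lox), which cross-links collagen, was at 0.612 to 1.78 CPM against 0.0787 to 0.174 CPM. Fibronectin (Fn1), which hepatocytes also secrete into plasma, was lower, at 1363 to 2067 against 2535 to 2777 CPM (log2 fold change -0.67, SE 0.12). Among proteases, macrophage elastase (Mmp12) had a log2 fold change of 4.18 (SE 0.35), at 12.5, 8.24, 7.38 and 4.63 CPM against 0.292 to 0.583 CPM, and Mmp9 overlapped between the groups (0.356 to 0.971 against 0.411 to 0.649 CPM). The inhibitor Timp1 rose with a log2 fold change of 1.18 (SE 0.17).

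Of 17 markers of stellate cells and myofibroblasts, 7 rose. Thy1, found on portal fibroblasts among other cells, was at 1.88, 2.07, 2.01 and 1.81 CPM against 0.0695 to 0.137 CPM (log2 fold change 4.16, SE 0.25, edgeR adjusted p = 1.88e-06). Tagln and Des, contractile and filament proteins of these cells, had log2 fold changes of 1.34 (SE 0.24) and 1.05 (SE 0.20), the latter short of 2-fold without H11, H21 or H22 (0.93 to 0.99). The classical marker Acta2 did not pass, at 7.73 ± 3.12 CPM (SD, n = 4), highest in H22, against 2.36 to 5.23 CPM (log2 fold change 1.21, SE 0.33, edgeR adjusted p = 0.0128). The receptor Pdgfrb was lower, at 29.4 to 34.4 against 44.2 to 54.1 CPM, less than 2-fold. Of signals that act on these cells, Tgfb2 was called higher (log2 fold change 2.66, SE 0.27) and Tgfb1 was not (0.91, SE 0.16). Follistatin (Fst), which binds activins, was at 4.30, 1.20, 0.842 and 0.851 CPM against at most 0.174 CPM, with F06 highest and no call without H10 or H12 (edgeR adjusted p = 0.0125 for H12 and just above the limit for H10), while the activin genes Inhba and Inhbe fell (log2 fold changes -1.64 and -1.56).

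Markers of bile duct cells and progenitors rose in 11 of 16 genes tested, with a median of 1.92. Krt19, a keratin of ducts, was at 5.83, 26.1, 32.1 and 14.3 CPM against 0.857 to 1.88 CPM, in the same order of rats as Gstp1. Cd24 was among them, Sox9 had a log2 fold change of 3.21 (SE 0.52) and Prom1, the CD133 gene, of 1.84 (SE 0.26). Krt8, shared with hepatocytes, was short of 2-fold, and Krt23 overlapped between the groups. Among oncofetal genes 5 of 10 rose: Gpc3 was at 3.21, 4.66, 6.60 and 2.31 CPM against 0.240 to 0.521 CPM and the non-coding RNA H19 at 10.6, 41.2, 23.4 and 20.1 CPM against 0.877 to 2.88 CPM. Alpha-fetoprotein (Afp), the fetal serum protein, was at 20.7 to 24.2 against 28.1 to 33.2 CPM (log2 fold change -0.41, SE 0.08, but 0.01 under library totals).

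Of 15 markers of continuous endothelium 8 were called, among them Cd34 (0.558 to 1.00 against 0.162 to 0.313 CPM), Vwf (log2 fold change 1.25, SE 0.13) and Cdh5 (1.73, SE 0.14). The apelin receptor Aplnr was at 0.530, 2.25, 2.40 and 1.36 CPM against at most 0.130 CPM. Of 10 markers of sinusoidal endothelium 3 rose, among them the scavenger receptor Stab2, at 33.2, 33.8, 32.4 and 43.9 CPM against 8.98 to 17.6 CPM. All 10 fitted log2 fold changes of the sinusoidal list were positive. The part of cell numbers in the rises of duct, stellate and endothelial genes was not tested.

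None of 12 Kupffer cell markers was called (median 0.41), against 15.2% of all genes tested. Clec4f, confined to these cells, was at 196, 103, 92.1 and 123 CPM against 121 to 169 CPM. Of 11 genes of recruited and scar macrophages 6 rose, with Gpnmb at 67.7 ± 24.1 CPM (SD, n = 4) against 18.8 to 25.2 CPM and Lgals3 at a log2 fold change of 1.42 (SE 0.18). Of 12 tested genes of antigen presentation 6 rose, all of them class II genes or their partners Cd74 and Ciita, which serve presentation to helper T cells. RT1-Da was at 177, 131, 125 and 102 CPM against 28.8 to 46.7 CPM, RT1-Ba at 174, 130, 126 and 89.3 CPM against 29.4 to 46.6 CPM, and Cd74 had a log2 fold change of 1.51 (SE 0.18). Of class I genes RT1-A2 was at 238 to 251 against 211 to 231 CPM and B2m had a log2 fold change of -0.33 (0.09 under library totals), neither called. F06 was the highest DEN rat for the macrophage and class II genes named here and the lowest for the foci enzymes. It was also highest for the blood cell list, of whose 6 tested genes none was called. The mean log2 CPM of that list minus the no DEN mean was 0.20 in F06 and -0.98, -1.11 and -0.46 in H21, H22 and H23. The part of blood in these differences was not tested. Marco, a scavenger receptor, was at 263 CPM in F06 and 53.8 to 82.0 CPM in the other DEN rats, against 46.7 to 89.9 CPM without DEN.

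Of 12 tested genes of T and NK cells Cd2 and Cd5 rose and Lag3 fell, and Cd3e was at 0.307 to 0.648 CPM against 0.118 to 0.274 CPM (edgeR adjusted p = 0.0155). The call of Cd5 ended when any 1 of the 8 rats was left out (edgeR adjusted p = 0.0122 to 0.0217), with DESeq2 (0.0120) and with no filter (0.0131), and that of Lag3 under library totals (-0.77). None of 4 tested B cell genes was called. Of 6 tested genes of neutrophils and mast cells 2 rose and 1 fell. The mast cell protease Cpa3 was at 0.718 to 1.23 CPM against at most 0.162 CPM. The histidine decarboxylase Hdc fell, at 2.41, 4.07, 4.31 and 2.31 CPM against 6.70 to 8.38 CPM (log2 fold change -1.21, SE 0.21, edgeR adjusted p = 6.62e-04, but -0.78 and not called under library totals). In no DEN rats Hdc was far above Cpa3, so how much of it came from mast cells is not known. The genes S100a8 and S100a9 of neutrophils did not pass, with F06 highest. Of 19 chemokines and receptors 7 rose, among them Cx3cl1 (log2 fold change 2.40, SE 0.26), Ccl21 (1.99, SE 0.24) and Ccl2 (1.78, SE 0.31). Cxcl12 fell, at 207, 123, 146 and 166 CPM against 418 to 451 CPM (log2 fold change -1.45, SE 0.14). Of 18 genes induced by interferon 2 rose and 1 fell, with Isg15 at 11.1 to 14.7 against 9.15 to 14.4 CPM. Over all genes tested 13.1% rose and 2.10% fell. The counts of rises in the T and NK cell, B cell and interferon lists are near that share. Cd276, a checkpoint ligand of the B7 family, rose with a log2 fold change of 3.39 (SE 0.19) and Cd48 of 1.12 (SE 0.14, but 0.96 without F06), while Lgals9, a ligand of Tim-3, was lower (-0.70, SE 0.10).

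**Figure D3:**
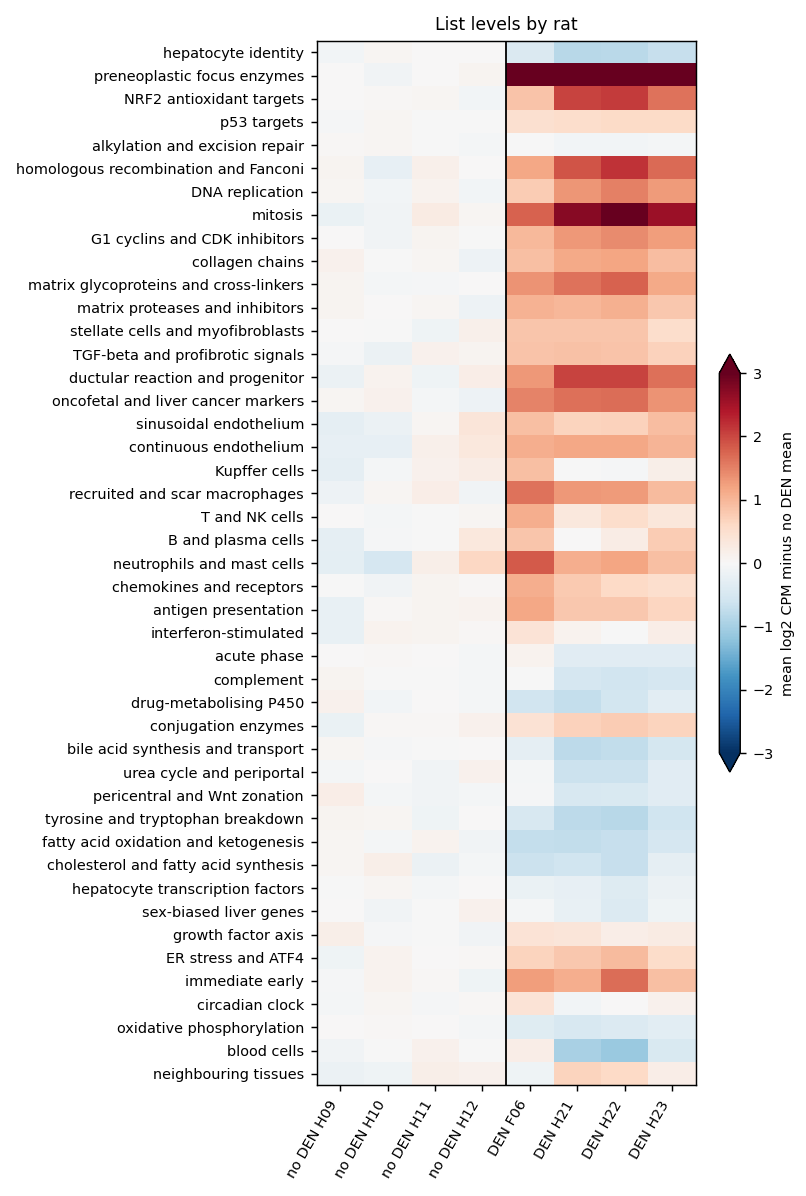
Level of each of 45 gene lists in each rat, as the mean log2 CPM of its tested members minus the mean of the no DEN rats, on a colour scale from -3 to 3. Columns left of the line are no DEN rats and columns right of it DEN rats. F06 is lower than H21 to H23 for foci enzymes (3.42 against 4.55 to 5.14) and NRF2 targets and higher for Kupffer cells (0.90 against at most 0.18).

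Of 14 genes that define hepatocytes 3 fell (Ttr, Apoc3 and Fabp1) and none rose, with a median log2 fold change of -0.67. Fabp1, which carries fatty acids, was at 2392, 1853, 2552 and 2739 CPM against 6797 to 8537 CPM (log2 fold change -1.66, SE 0.14, edgeR adjusted p = 9.59e-06). Albumin (Alb) was at 158316, 122131, 119476 and 141661 CPM against 191207 to 218122 CPM, and Apoa1 was higher rather than lower (2202 to 3566 against 1579 to 2417 CPM, with overlap). The call of Ttr fell short of 2-fold without H10, H11, H21 or H22 (-0.90 to -0.98), and under library totals those of Ttr and Apoc3 did (-0.60 and -0.75). The median of this list was -0.25 under library totals, and those of the lists for acute phase, complement, pericentral genes, hepatocyte transcription factors and oxidative phosphorylation went from -0.40, -0.40, -0.37, -0.40 and -0.41 to 0.00, 0.02, 0.04, 0.03 and 0.01, so no direction is given for these 5 lists. Of 23 genes of oxidative phosphorylation none was called.

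Of 25 drug-metabolising P450 genes 8 fell and 2 rose, with a median of -0.70 (-0.29 under library totals, with 4 falling and 2 rising). Cyp1a2, which activates aromatic amines, was at 116 to 195 against 334 to 591 CPM (just short of 2-fold under library totals, at -0.99), while its relative Cyp1a1 rose from 0.480 to 0.585 CPM to 5.59 to 15.6 CPM, with F06 lowest. Cyp2e1, the main enzyme that activates DEN, overlapped, at 1337 to 2031 against 1758 to 2200 CPM (log2 fold change -0.32, SE 0.14). Conjugating enzymes moved both ways, with 4 of 19 higher and 3 lower. Ugt1a6 was at 79.7, 244, 230 and 170 CPM against 13.9 to 16.1 CPM, and Sult2a1 fell (log2 fold change -2.16, SE 0.21).

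Of 15 genes that differ between male and female rat liver, 3 rose and 5 fell. The male P450 Cyp2c11 was at 729, 299, 502 and 876 CPM against 5010, 4100, 4242 and 2863 CPM (log2 fold change -2.75, SE 0.33, edgeR adjusted p = 1.99e-04). The female P450 Cyp2c12 was at 76.0, 235, 159 and 143 CPM against 8.33 to 21.7 CPM (log2 fold change 3.33, SE 0.42). The female genes A1bg and Cux2 rose as well, whereas Cyp2c7, which is also higher in females, fell (-2.21, SE 0.16), and the male genes Cyp2c13 and Cyp3a2 were not called. The call of A1bg ended without H09, H11, H12 or H22 (edgeR adjusted p = 0.0124 to 0.0162) and that of Cux2 without F06, H09, H11, H21 or H23 (0.00911 to 0.0213, with a log2 fold change of 0.93 at the lowest). Growth hormone receptor (Ghr) and its products Igf1 and Igfals, which binds Igf1 in serum, fell with log2 fold changes of -1.03, -1.05 and -1.03. Ghr was at 282 to 328 against 591 to 643 CPM. Under library totals these 3 fell short of 2-fold (-0.61, -0.63 and -0.61), as did Ghr without H21 or H22 (-0.99 without H21) and Igfals without H10 or H22 (-0.97 and -0.93).

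The 10 largest falls by the same rule were Aox3, Obp3, Tenm2, Inmt, LOC100360095, Gimd1, Stac3, Lppr1, Cela1 and LOC689065. Aldehyde oxidase Aox3 was nearly lost, at 0.265, 0.307, 1.29 and 1.20 CPM against 152, 109, 96.3 and 96.4 CPM (log2 fold change -7.23, SE 0.42, edgeR adjusted p = 1.07e-05). Obp3, a lipocalin of the urinary protein family, was at 9.81 ± 5.76 CPM (SD, n = 4) against 240 to 408 CPM. Mup5 and LOC259245 of the same family went from 1773 to 2507 CPM to 122 to 281 CPM and from 729 to 865 CPM to 52.9 to 128 CPM. These genes have near-identical copies and pairs aligned to several places were not counted, so the share of each copy is uncertain. The methyltransferase Inmt was at 6.83, 1.53, 3.63 and 4.49 CPM against 68.0 to 85.6 CPM, and Stac3 at 8.92 to 24.1 against 218 to 349 CPM. F06 and H21 were the lowest DEN rats for Aox3, Obp3, Mup5 and Stac3, so these falls do not follow the order seen in the foci enzymes.

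Among the metabolic lists, 4 of 19 genes of fatty acid oxidation fell (median -0.58, and -0.16 under library totals), including Cpt1a, which admits fatty acids into mitochondria (83.5 to 197 against 258 to 386 CPM). Of 21 genes of cholesterol and fatty acid synthesis 4 fell (Pnpla3, Fasn, Acly and Insig1) and 1 rose. Pnpla3 was at 103, 57.7, 55.7 and 80.8 CPM against 327 to 1245 CPM. For bile acids, 3 of 19 fell, among them the sterol hydroxylase Cyp8b1 (158 to 325 against 524 to 655 CPM), and Cyp7a1, the rate-limiting enzyme, overlapped (43.6 to 121 against 43.5 to 75.9 CPM). None of 14 urea cycle and periportal genes was called, with Cps1 at 1923 to 2336 against 2056 to 2766 CPM. Of 13 genes of tyrosine and tryptophan breakdown 1, Kynu, fell (log2 fold change -1.41, SE 0.12). Calls near the limits ended with 1 rat left out: Cpt1a without H11, H12, H21, H22 or H23 (edgeR adjusted p = 0.0127 to 0.0183) and Fasn without any rat but H11 or H23 (0.0172 to 0.0306). Both also ended with no filter on low counts (edgeR adjusted p = 0.0103 and 0.0176). Under library totals the genes called lower numbered 1 in fatty acid oxidation, 1 in lipid synthesis and 0 in the bile acid and amino acid lists.

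Of serine synthesis, Phgdh, the first enzyme of the route, was at 10.7 ± 5.19 CPM (SD, n = 4) against 0.556 to 0.877 CPM, and Psat1 had a log2 fold change of 2.53 (SE 0.23). The ATF4 list had 6 of 16 higher and 1 lower, yet Atf4 itself (120 to 154 against 151 to 170 CPM) and Ddit3 were not called. Of 11 immediate early genes, which also respond to handling of tissue, 6 rose, with Egr1 at 16.3, 14.7, 20.2 and 10.7 CPM against 1.71 to 1.98 CPM and Maff at 4.83, 9.36, 13.4 and 6.49 CPM against 0.451 to 0.709 CPM. Dusp1 and Zfp36 of the same list overlapped between the groups. Of 14 clock genes, which follow the hour of sampling, only Per3 was called (log2 fold change 2.07, SE 0.25). Among markers of neighbouring tissues Vil1, of gut and duct brush borders, rose and the elastase Cela1 fell, and the other 3 tested were not called.

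The same comparison was made at the other weeks. At 8 weeks of DEN, 7.29% of 10812 genes rose and 0.620% fell, and at 20 weeks, after 6 weeks without DEN, 4.89% of 10827 rose and 0.333% fell, each against untreated rats of its own week. Of the 1445 genes higher at 14 weeks, 621 were also called at 8 weeks (43.0% of them and 78.8% of the 788 called there) and 456 at 20 weeks (31.6% and 86.2% of 529). The direction at week 8 was the same in 1272 of the 1288 that could be tested, and at week 20 in 1297 of 1309. Of the 231 genes lower at 14 weeks, 51 were called at week 8 (22.1%, and 76.1% of the 67 called there) and 26 at week 20 (11.3%, and 72.2% of 36). The 456 became 275, 279 or 217 without the untreated week 20 rats H14, H15 or H16, and the 26 became 14 without H16 or the DEN rat H26.

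Whether the effect of DEN itself differed was tested by the interaction of treatment and week, at an adjusted p of at most 0.05. Between weeks 14 and 8 the effect was higher at 14 in 4.16% of 11219 genes (467) and lower in 4.80% (538). These 1005 genes in all became 1760 without F06, 1870 without H17, 595 without F09, 618 without H07, 602 without H10, 622 without H11 and 533 without H21. In all, 6 of the 13 foci enzymes and 10 of the 20 NRF2 targets tested had a higher effect at 14 weeks and none a lower one (8 and 13 under library totals). In the other direction, 11 of 23 genes of oxidative phosphorylation (8 under library totals), 6 of 14 that define hepatocytes (5, with 1 higher) and 5 of 24 p53 targets (2, with 2 higher) had a lower effect at 14 weeks. Gstp1 had log2 fold changes of 3.65 at week 8 and 7.28 at week 14 (interaction adjusted p = 0.0124), Ggt1 of 1.37 and 5.34 (0.00700) and Gclm of 0.36 and 2.35 (0.0117). Of the duct and progenitor list, 7 of 16 genes had a higher effect at 14 weeks (12 under library totals), Krt19 going from 0.88 to 3.74 (0.0161). No mitosis gene differed between these weeks (0 of 30), and Cdkn1a and Mgmt had a smaller effect at 14 than at 8 weeks (2.80 to 1.94 and 1.87 to 1.00, interaction adjusted p = 0.0148 and 0.00319). Mup5 went from -0.90 to -3.43 and Aox3 from -4.28 to -7.23, both with an edgeR interaction adjusted p of 0.00319.

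Between weeks 14 and 20 the effect was higher at 14 in 0.373% of 11245 genes (42) and lower in 0.365% (41). These 83 genes became 386 without F06, 408 without H26, 234 without H28, and 31 to 48 without F03, H10, H11, H21, H22 or H25. Genes with the larger rise at 14 weeks included 5 of the p53 targets (Cdkn1a, Mdm2, Ccng1, Fas and Phlda3). Cdkn1a went from 1.94 at 14 weeks to 0.31 at 20 (interaction adjusted p = 0.0145), Mdm2 from 1.46 to 0.34 (3.94e-04) and Ccng1 from 1.10 to -0.07 (0.00359). Mybl2 went from 3.36 to 0.06 (0.00102), Lama5 from 3.78 to 1.58 (9.60e-05), Abcb1b from 5.45 to 1.60 (0.00105) and Mgmt from 1.00 to 0.03 (0.00257). In the other direction, Aox3 went from -7.23 to -2.09 (9.60e-05), Obp3 from -5.04 to -1.72 (0.0189) and Stac3 from -4.11 to -1.55 (0.0116). Of the foci enzymes only Abcb1b passed this test, and Gstp1 was still at 6.73 at 20 weeks. Of the 30 mitosis genes Kif11 passed, although 2 were called at 20 weeks against 30 at 14. In all, 24 genes called at 14 weeks differed in effect from both other weeks. Both tests hold the same week 14 libraries, in which these genes were also called, so their results are not independent. The 24 are drawn from the 83 genes above, a number that moved with single rats. Of these, 18 were called lower and had a more negative effect at 14 weeks than at both others, including Aox3, Mup5, Gimd1, Car3 and Hao2. A larger rise at 14 weeks than at both others was seen in 4 genes (B4galt5, Col4a1, Fbn1 and Myadm), and the remaining 2, Cdkn1a and Nhej1, had a smaller rise than at 8 weeks and a larger one than at 20.

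**Figure D4:**
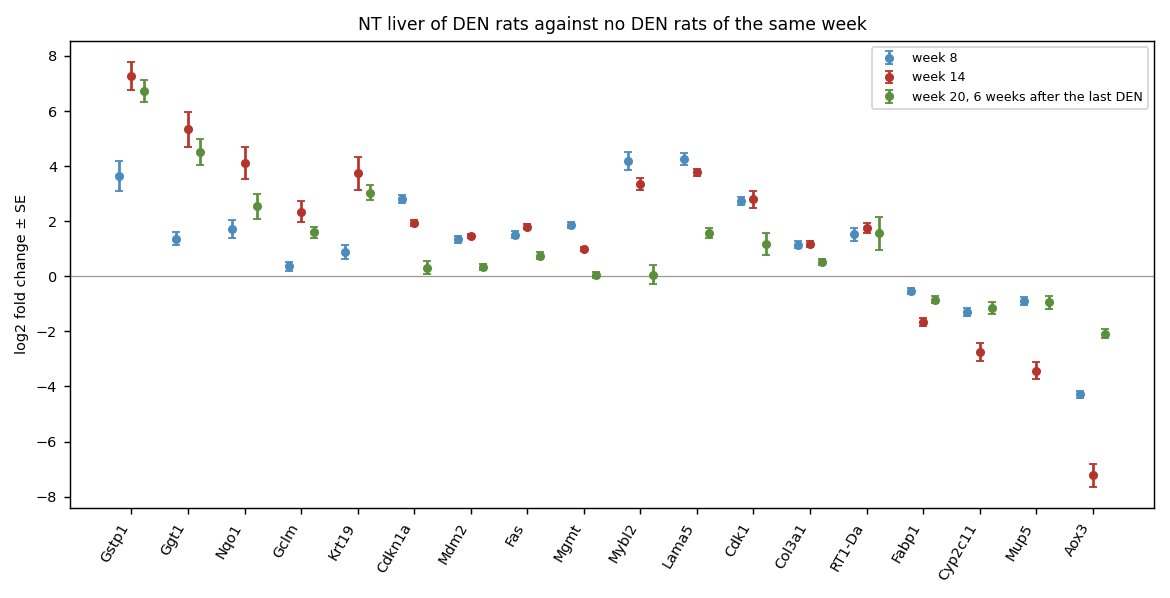
Log2 fold change of 18 genes in NT liver of DEN rats against untreated rats of the same week, at weeks 8, 14 and 20, with standard errors (4 rats a group). Gstp1 rises between weeks 8 and 14 (3.65 to 7.28) and stays at week 20 (6.73), Cdkn1a and Mybl2 return to near 0 at week 20 (0.31 and 0.06), and Mup5 and Aox3 have their lowest fitted values at week 14.

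Each DEN rat also gave 2 nodules, whose values are set beside its NT liver. The difference between nodules and NT liver of the same rat was not tested. On a scaling over all 40 libraries, Gstp1 was at 506 to 1981 CPM in NT liver and at 1243 to 3570 CPM in the 8 nodules, 8 of which were above the NT liver of their own rat. Krt19 was at 6.09 to 33.2 CPM in NT liver and 12.4 to 94.0 CPM in nodules, higher in 7 of 8. NT liver and nodules overlapped for Cdkn1a (122 to 173 and 103 to 204 CPM), Lama5 (18.7 to 22.6 and 17.6 to 34.9 CPM), Col3a1 (291 to 346 and 292 to 359 CPM) and Mup5 (126 to 295 and 89.7 to 319 CPM). Aox3 was lower than in the own NT liver in each of the 8 nodules (0.0657 to 1.01 against 0.277 to 1.34 CPM), and Abcb1b was also lower in each of them (68.8 to 217 against 185 to 223 CPM). Its lowest values, 68.8 and 98.6 CPM, were those of the F06 nodules, and the gap was small elsewhere, as in H21 (217 against 223 CPM). The F06 nodules stood apart for other genes too, such as Cps1, at 194 and 622 CPM against 1425 to 2060 CPM in the other nodules.

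**Figure D5:**
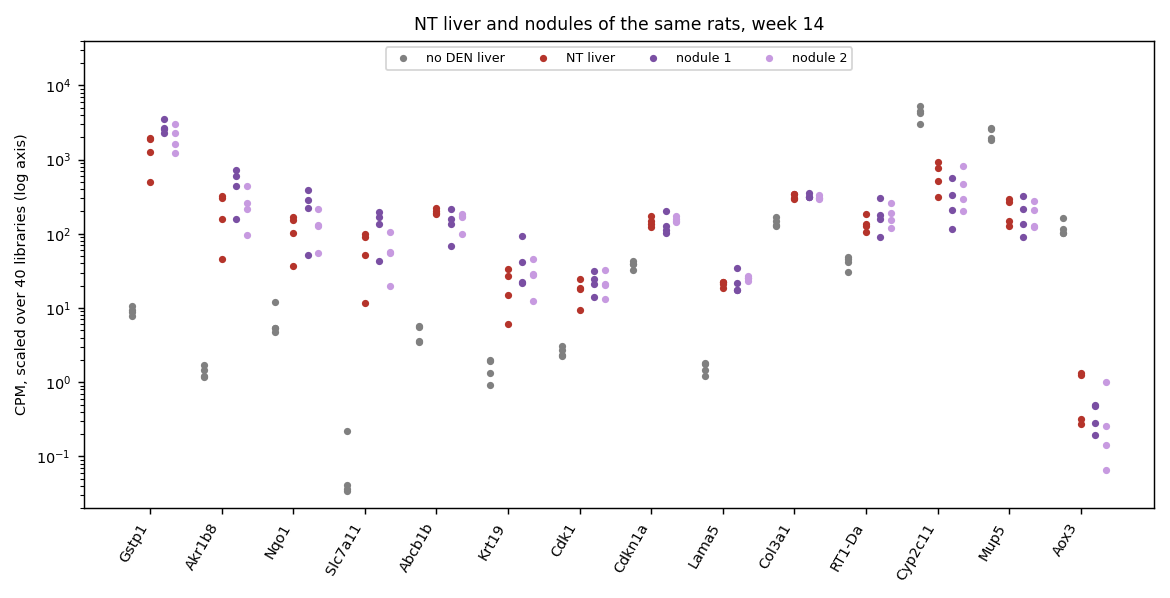
Level of 14 genes at week 14 in untreated liver, NT liver and both nodules of the same 4 DEN rats, as CPM scaled over 40 libraries on a log axis, 1 point per library. The columns of each gene show untreated liver, NT liver and nodules side by side, with Gstp1 at 506 to 1981 CPM in NT liver and 1243 to 3570 CPM in nodules.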

How the data were processed

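Bulk RNA from liver pieces was sequenced as stranded read pairs. The authors deposited raw counts per gene for each library. Per the submitters' processing notes the tools were STAR 2.7.1a, HTSeq and DESeq2 1.22.2 with the build rn6, and per the study's methods only uniquely aligned pairs on the reverse strand, wholly within a gene, were counted. Near-identical copies of a gene therefore lose pairs. HTSeq's summary lines, among them pairs in no gene and ambiguous pairs, were left out.

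Genes passing edgeR's filter for low counts were tested in R 4.3.3 with the robust quasi-likelihood test of edgeR 4.0.16 after TMM scaling, separately for each week, with Benjamini-Hochberg adjustment over all genes tested. The interaction fits held the 4 groups of 2 weeks. The SE is the log2 fold change divided by the square root of F. Library measures were compared by exact two-sided permutation over 70 arrangements. The code was tested on simulated counts. Columns matched to no sample numbered 0.

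The members, the 45 gene lists (818 genes, 766 counted, the others not analysed here; a few genes are not reported here) and the comparisons were chosen with earlier results of these data known. Genes were named by the 10 largest changes in each direction among called genes averaging 1 CPM or more without overlap, by list (the first 3 genes and the 2 largest and 2 smallest changes), by interaction (5 in each direction), or because the paper names them. Chosen after their values were seen were Abcc3, Acly, Akr7a3, B4galt5, Btg2, Car3, Cd2, Cd74, Cdh5, Cyp2e1, Cyp3a2, Fasn, Ghr, Gsta2, Hao2, Hmox1, Igfals, Insig1, Kif11, Lgals3, Mki67, Myadm, Myc, Nhej1, Nusap1, Phlda3, Plk1, Prom1, Psat1, Sox9, Srxn1, Timp1, Txnrd1, Ugdh and Zmat3.

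The rats were separate animals, but the labels name no litter or batch. Replicate libraries differed by more than sampling noise (chi-square per degree of freedom of 12.9 to 113). Alternatives were DESeq2 1.42.0, RLE scaling, library totals, no filter, 1 fit of all 6 groups, another threshold, and leaving out each rat.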

Additional observations from a re-analysis of the deposited data

Results flagged for a closer look

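Values are given here where the highest or lowest of 4 rats was separated from its nearest neighbour by a gap that, divided by the range of the group, exceeded the 95% critical value of Dixon's test. At that level chance alone marks about 1 in 20 groups. In the DEN group F06 was the highest for Ccnd1 (150 CPM), Fst (4.30 CPM), Vwf (20.5 CPM), Gpnmb (103 CPM), Marco (263 CPM), S100a9 (7.86 CPM) and Cpt1a (197 CPM), and H23 was the highest for Stab2 (43.9 CPM). In the no DEN group H09 was the highest for Nqo1 (11.2 CPM), Cyp1a2 (591 CPM), Cyp8b1 (655 CPM) and Fbn1 (7.37 CPM) and the lowest for Hmox1 (24.5 CPM). H10 was the lowest for Aldh3a1 (0 CPM) and Lox (0.0787 CPM) and the highest for Lgals9 (189 CPM). H11 was the highest for Akr7a3 (67.0 CPM), Slc7a11 (0.208 CPM), Nefl (0.0347 CPM) and Dnaaf1 (0.0695 CPM) and the lowest for Des (2.22 CPM), and H12 was the highest for Pcp4 (0.0649 CPM), Zmat3 (6.56 CPM), Cd2 (0.585 CPM), Psat1 (3.64 CPM) and Ddit3 (9.16 CPM). For Aldh3a1, Nefl, Dnaaf1 and Pcp4 the no DEN rats had 3, 1, 2 and 2 counts in all, so these gaps are too small to set a rat apart. Of the library measures, H22 had the fewest counted pairs (25403461) and H23 the highest share of pairs in no gene (24.9%) of the DEN rats.

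The effect of DEN differed between weeks 14 and 8 in 1005 genes by the interaction test. The differences of log2 fold changes (week 14 minus week 8) were -3.08 for Gimd1, -2.94 for Aox3, -2.52 for Mup5, -2.39 for LOC100360095 and -2.31 for LOC259245, and 4.35 for Ccdc92, 4.30 for Akr1b8, 3.97 for Ggt1, 3.63 for Gstp1 and 3.58 for Sema3b. It differed between weeks 14 and 20 in 83 genes. The differences (week 14 minus week 20) were -5.15 for Aox3, -3.33 for Obp3, -3.18 for LOC100360095, -2.95 for Inmt and -2.57 for Stac3, and 3.85 for Abcb1b, 3.30 for Mybl2, 2.64 for Mybl1, 2.52 for Fam83d and 2.20 for Lama5. The numbers of genes moved with single rats, as given beside the comparisons.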

How the results depend on the processing

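The 1676 genes called at week 14 ranged from 1533 to 1786 with 1 rat left out (higher 1318 to 1479, lower 199 to 307), and became 5989 (3243 higher, 2746 lower) at an adjusted p of at most 0.05 with no fold limit. Under library totals 2425 were higher and 87 lower, genes of all lists called lower went from 41 to 16 and called lower genes among those that the naming rule selects from 39 to 25. With 1 rat left out, list genes called numbered 206 to 217 higher and 34 to 56 lower, and genes that the rule selects 109 to 116 higher and 37 to 45 lower.

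The genes whose DEN effect differed between weeks 14 and 8 (1005) became 1522 with DESeq2, 1852 under library totals and 533 to 1870 with 1 rat left out. Those of weeks 14 and 20 (83) became 386 with DESeq2, 144 under library totals, 178 in the fit with all 6 groups and 31 to 408 with 1 rat left out. Higher genes also called at week 8 became 1080 under library totals (512 to 654 with 1 rat left out) and lower ones 27 (38 to 64). At week 20 higher ones became 895 under library totals (217 to 540), and lower ones 16 under library totals, 49 with DESeq2 and 55 in the fit with all 6 groups (14 to 33).

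Of 164 tested genes of the text examined singly, whether selected by the rule or chosen later, 13 reversed under library totals, none of them called: log2 fold changes became 0.36 for Tf, 0.42 for Mpg, 0.41 for Krt23, 0.01 for Afp, 0.24 for Clec4f and Cps1, 0.09 for B2m and Cyp2e1, 0.29 for Cyp3a2, 0.14 for Atf4, 0.30 for Ddit3, 0.37 for Dusp1 and 0.39 for Zfp36. With 1 rat left out, values near 0 reversed for Mpg (0.04, 0.03 and 0.02 without H10, H21 and H23), Mmp9 (-0.31 and -0.03 without F06 and H09), Krt23 (0.15, 0.39 and 0.19 without F06, H09 and H21), Marco (-0.03 without F06), Dusp1 (0.17, 0.18 and 0.11 without H12, H21 and H23) and Zfp36 (0.00 and 0.11 without H21 and H23). Over all 8 omissions their ranges were Mpg (-0.09 to 0.04), Mmp9 (-0.31 to 0.24), Krt23 (-0.45 to 0.39), Marco (-0.03 to 1.04), Dusp1 (-0.47 to 0.18) and Zfp36 (-0.20 to 0.11). No reversal occurred with DESeq2, RLE scaling, no filter or the fit with all 6 groups. The cause was not tested.

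No paired analysis was possible because the DEN and no DEN groups compared hold different rats and share no replicate number. Nodules and NT liver do come from the same rats, and that difference was not tested. With 4 rats a group an exact test cannot go below 0.0286, and genes under about 1 CPM rest on few counts.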
